A study of Arabidopsis thaliana with 24 samples.

Results

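The stomatal lineage genes described here are 10 genes of Arabidopsis thaliana chosen by name because they build or pattern stomata: SPCH, MUTE, FAMA, BASL, EPF1, EPF2, STOMAGEN, TMM, ERL1 and SDD1. They are 10 of the 33602 genes in the deposited table of estimated counts, and all 10 passed the filter on low counts in every comparison. RNA-seq was run on shoots of 7-day-old Col-0 seedlings, in 6 groups of 4 biological replicates (24 libraries). Wild type (WT) and EXPA1 OE, the overexpressing line 8-4, were each sampled under 3 conditions: no dexamethasone (Dex), 3 h of Dex, or 7 days on medium holding Dex. In OE, Dex switches on EXPA1, an expansin that loosens cell walls. The line carries a Dex-activated glucocorticoid receptor (GR) driver under the RPS5A promoter, which is active in dividing tissues. Line 8-4 is 1 line, so in OE against WT an effect of EXPA1 and one of that line's own genome cannot be told apart. Contrasts of Dex effects between the genotypes set aside only differences present without Dex. Even there, an effect of EXPA1 cannot be told apart from one of the activated driver or of the line's own response to Dex. WT received Dex too, but carries no inducible EXPA1. No group was handled for 3 h without Dex, so in the contrasts of 3 h against no Dex the effects of Dex, of handling and of the time of harvest cannot be told apart.

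Stomata are pores flanked by a pair of guard cells, and their precursors arise in the young epidermis by asymmetric and then symmetric divisions. The bHLH transcription factors SPCH, MUTE and FAMA act one after another, SPCH in starting the lineage, MUTE in ending the asymmetric divisions and FAMA in the last division and guard cell identity. The secreted peptides EPF2 and EPF1 restrain the lineage through receptor kinases of the ERECTA family and their partner TMM, STOMAGEN competes with them and promotes stomata, SDD1 is a subtilisin-like protease that lowers stomatal density, and BASL marks one side of the cell before an asymmetric division.

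The libraries held 33618183 to 82187324 estimated counts. EXPA1 was at 200.2 to 604 CPM (read counts scaled to a common library size) in the 12 WT libraries and at 377 to 481 CPM in OE without Dex, and reached 18151 to 19173 CPM in OE after 3 h and 10795 to 15671 CPM after 7 days, as the labels say. The shoot label matched 5 photosynthesis genes, which summed to 30722 CPM or more in every library, against 40.4 CPM or less for 5 root genes. At 7 days libraries 1 and 2 stood apart from 3 and 4 on the second principal component in both genotypes. Members parted by the same pairs included FAMA and TMM in both genotypes, and SPCH and STOMAGEN in WT. TMM was parted in opposite directions in WT and OE. Values within each pair of libraries stand beside the 7-day values of each member. WT libraries without Dex were also closer within the pairs 1-2 and 3-4 (Spearman 0.996 each) than across them (0.980 to 0.984).

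Per kilobase of exon, the scale on which genes can be compared, STOMAGEN was the most abundant member, at 21.9 CPM per kb averaged over the 24 libraries. TMM (9.75), FAMA (9.44) and SPCH (7.20) followed, and ERL1 and MUTE were lowest, at 1.65 and 1.66 CPM per kb. On the CPM scale, with library sizes scaled by TMM, MUTE and EPF1 never passed 2.18 and 2.03 CPM, and the smallest count behind any member's value was 24 reads for MUTE. The gene models of SPCH and SDD1 in the exon table hold only the coding part, so their per-kilobase levels and those of genes with untranslated sequence are not on quite the same footing. Because the shoots were bulk samples, fewer cells of the lineage and less RNA per cell cannot be told apart in any value below.

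**Figure D1:**
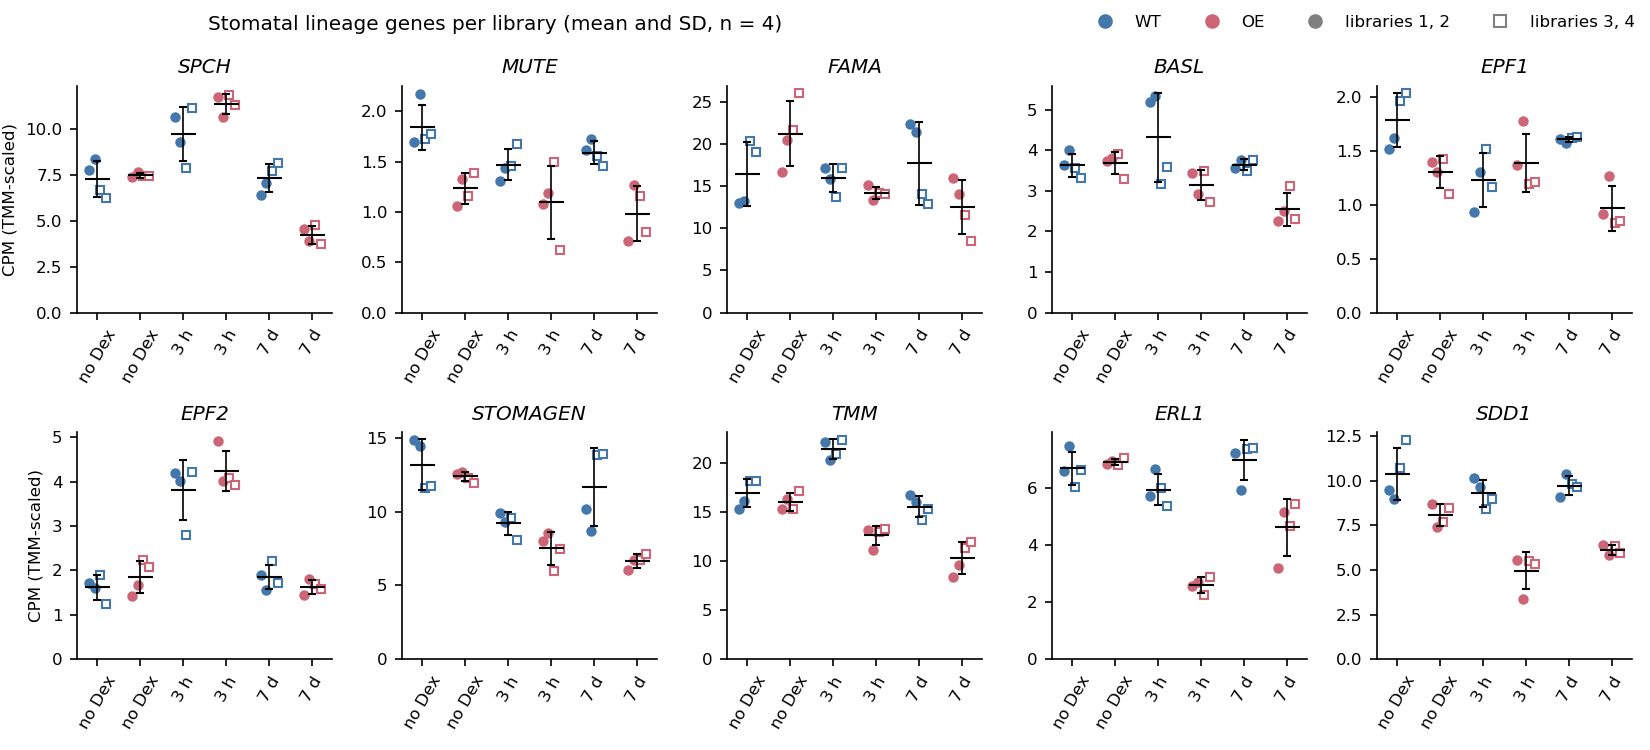
CPM (y axis, from 0, TMM-scaled) of the 10 stomatal lineage genes in each of 24 libraries, by genotype (WT blue, OE red) and Dex condition, with filled circles for libraries 1 and 2, open squares for libraries 3 and 4, and black bars for the mean and SD of 4. ERL1 sits at 2.24 to 2.87 CPM in OE after 3 h, below every other library, and SPCH at 3.72 to 4.74 CPM in OE after 7 days, below every other library.

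Upstream sequence is shown for 3 members, picked after their values were seen. EPF2 was higher after 3 h of Dex than without in both genotypes, and ERL1 and TMM were lower in OE. The 250 bases before the RefSeq start of each come from the TAIR10.1 genome, 5′ to 3′ on the gene's own strand, with every CANNTG in capitals. CANNTG is the E-box core that bHLH factors recognise, and it reads the same on both strands. The EPF2 window is chr1:12472618-12472867 (plus strand), the ERL1 window chr5:24995879-24996128 (plus strand) and the TMM window chr1:30129650-30129899 (minus strand), and none of them overlaps another gene.
EPF2: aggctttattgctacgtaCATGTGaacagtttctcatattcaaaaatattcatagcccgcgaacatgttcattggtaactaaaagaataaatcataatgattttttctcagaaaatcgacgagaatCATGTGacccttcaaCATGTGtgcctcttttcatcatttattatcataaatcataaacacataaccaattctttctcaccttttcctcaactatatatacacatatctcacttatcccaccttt
ERL1: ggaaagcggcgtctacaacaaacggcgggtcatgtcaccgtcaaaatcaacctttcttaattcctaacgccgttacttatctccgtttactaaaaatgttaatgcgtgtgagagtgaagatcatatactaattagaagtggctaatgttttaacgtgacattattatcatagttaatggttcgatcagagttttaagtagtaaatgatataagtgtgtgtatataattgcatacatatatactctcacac
TMM: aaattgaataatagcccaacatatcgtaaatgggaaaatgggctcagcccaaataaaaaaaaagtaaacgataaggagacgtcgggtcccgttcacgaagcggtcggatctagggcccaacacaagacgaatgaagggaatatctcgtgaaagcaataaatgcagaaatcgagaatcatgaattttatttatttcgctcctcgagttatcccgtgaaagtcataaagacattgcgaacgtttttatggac

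The EPF2 window held 3 matches, all of them CATGTG, from 232 to 109 bases before the start. The ERL1 and TMM windows held none. Of 27438 windows of protein-coding genes, 55.3% held a CANNTG and 5.69% held 3 or more, while 0.109% (30 windows) held 3 or more CATGTG on either strand. CATGTG is the hexamer of the EPF2 matches themselves, so the 0.109% does not measure how unusual that window is. Among the members, FAMA and EPF1 held 2, MUTE, BASL and SDD1 held 1, and SPCH and STOMAGEN held none. These matches are letters in a window and not measured binding sites, and no relation between them and the changes of the members was tested.

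Without Dex, the question was whether the line differs from WT before induction. In these libraries MUTE, EPF1 and SDD1 were each lower in every OE library than in every WT library, though none of the 10 members passed the test. MUTE (AT3G06120, chr3:1846531-1848230, plus strand) read 1.70, 2.18, 1.72 and 1.77 CPM in WT and 1.06, 1.33, 1.16 and 1.39 CPM in OE. Its log2 fold change was -0.57 ± 0.16 (SE), and edgeR's quasi-likelihood test gave an adjusted p of 0.0503, where Benjamini-Hochberg adjustment covered every gene tested. The value sat at the threshold, since the adjusted p was 0.0351 on the exon counts and 0.0161 with DESeq2. EPF1 gave -0.44 ± 0.15 (edgeR, adjusted p = 0.101) and SDD1 -0.35 ± 0.11 (edgeR, adjusted p = 0.0691), which passed without WT library 2 (-0.42, edgeR, adjusted p = 0.0495). The other 7 lay between -0.08 and 0.38, with FAMA, a guard cell factor, at the top (edgeR, adjusted p = 0.19).

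By edgeR, 0 of 10 members passed at an adjusted p under 0.05, whereas 10.5% of the 20596 genes tested did (3.16% at 2-fold or more). At an unadjusted p under 0.05 there were 3 members, and DESeq2 passed 2. Groups without overlap were seen for 3 of 10 members and for 20.2% of all genes, and the median log2 fold change was -0.02 for the members and 0.02 for all genes. ERECTA, the founding receptor kinase of its family, was the only one of 26 other stomatal lineage genes to pass, and was higher in OE (0.33 ± 0.05, edgeR, adjusted p = 0.00754). Among marker genes, 3 of 5 root genes were lower in OE, all past 2-fold. The 5 root genes summed to 7.59 to 13.1 CPM against 16.9 to 17.9 CPM in WT. Of 10 genes of dividing cells and young leaf 1 was higher, with sums of 191 to 203 CPM against 116 to 190 CPM. Mature guard cell genes gave 1 of 12 higher, and no epidermis or photosynthesis gene passed. The part of these shifts in the values without Dex was not tested.

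After 3 h of Dex, the receptor and protease genes were lower in OE than in WT. ERL1, TMM and SDD1 fell by 1.19, 0.76 and 0.91 on the log2 scale, and STOMAGEN fell by 0.30. The 3 transcription factors, BASL and both EPF peptides did not pass the test.

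ERL1 (AT5G62230, chr5:24996129-25002340, plus strand), a receptor kinase of the ERECTA family, stood at 5.73, 6.69, 6.02 and 5.38 CPM in WT and at 2.58, 2.72, 2.24 and 2.87 CPM in OE. The lowest WT library was well above the highest OE library. The log2 fold change was -1.19 ± 0.11 (edgeR, adjusted p = 9.2e-06), and ERL1 was the only member past 2-fold. No other gene overlaps its model in the exon table, although the RefSeq model reaches the neighbour AT5G62240.

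TMM (AT1G80080, chr1:30128005-30129591, minus strand), the receptor-like protein that pairs with the ERECTA family, was at 22.1, 20.3, 20.9 and 22.4 CPM in WT and 13.2, 11.1, 12.9 and 13.2 CPM in OE. All WT libraries lay above all OE libraries, and the WT level was itself higher than without Dex. The difference was -0.76 ± 0.07 (edgeR, adjusted p = 6.09e-06).

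SDD1 (AT1G04110, chr1:1061457-1063784, minus strand) was at 10.2, 9.65, 8.44 and 8.98 CPM in WT and 5.54, 3.40, 5.50 and 5.34 CPM in OE. The groups were apart, with 1 OE library far below the other 3. The difference of -0.91 ± 0.14 (edgeR, adjusted p = 0.000349) was -0.78 without that library and still passed. ERL1, TMM and SDD1 passed whichever single library was left out.

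STOMAGEN (AT4G12970, chr4:7586143-7586849, minus strand), made in the inner leaf tissue, was at 9.92, 9.29, 9.60 and 8.11 CPM in WT and 7.99, 8.57, 6.01 and 7.49 CPM in OE. The ranges overlapped, since the lowest WT library was below the highest OE one. Its -0.30 ± 0.11 (edgeR, adjusted p = 0.0458) did not pass without WT library 1, 2 or 3 or without OE library 3 or 4, where the adjusted p ran from 0.0825 to 0.112.

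SPCH (AT5G53210, chr5:21586606-21588941, minus strand), the factor that starts the lineage, was at 10.6, 9.26, 7.84 and 11.1 CPM in WT and 11.7, 10.6, 11.8 and 11.3 CPM in OE. Those ranges overlapped, and the log2 fold change was 0.23 ± 0.10 (edgeR, adjusted p = 0.0863). Without WT library 4, SPCH passed (0.30, edgeR, adjusted p = 0.0326). MUTE was at -0.43 ± 0.24 (edgeR, adjusted p = 0.156) and ran from -0.63 to -0.23 when 1 library was left out, without passing. FAMA (AT3G24140, chr3:8715236-8718211, minus strand) was at -0.17 ± 0.08 (edgeR, adjusted p = 0.0834) and passed without WT library 3 (-0.25, edgeR, adjusted p = 0.0104).

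BASL (AT5G60880, chr5:24488289-24489778, minus strand), the polarity protein, gave -0.45 ± 0.18 (edgeR, adjusted p = 0.0526) and passed with exon counts (adjusted p = 0.0417) and with DESeq2 (0.0286). It also passed without WT library 3 (-0.58, edgeR, adjusted p = 0.0135) or WT library 4 (-0.53, edgeR, adjusted p = 0.037), and ran from -0.58 to -0.33 over the fits that left out 1 library. Its 4 WT libraries split into a pair at 5.18 and 5.34 CPM and a pair at 3.17 and 3.60 CPM, and the lower pair overlapped OE (2.73 to 3.48 CPM). EPF1 (AT2G20875, chr2:8983074-8983612, minus strand) and EPF2 (AT1G34245, chr1:12472868-12473754, plus strand) were both at 0.16, with 95% intervals from -0.28 to 0.61 and from -0.16 to 0.47.

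In all, 4 of 10 members passed, all lower, where 53.2% of the 20449 genes tested passed and 25.8% passed as lower. Past 2-fold the members gave 1 of 10 and all genes 9.40%. No overlap between groups was seen for 3 of 10 members and 48.4% of genes. The members' shares passed at any fold and without overlap were thus below those of all genes, and the share past 2-fold was close to theirs. The median was -0.37 for the members and 0.02 for all tested genes.

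**Figure D2:**
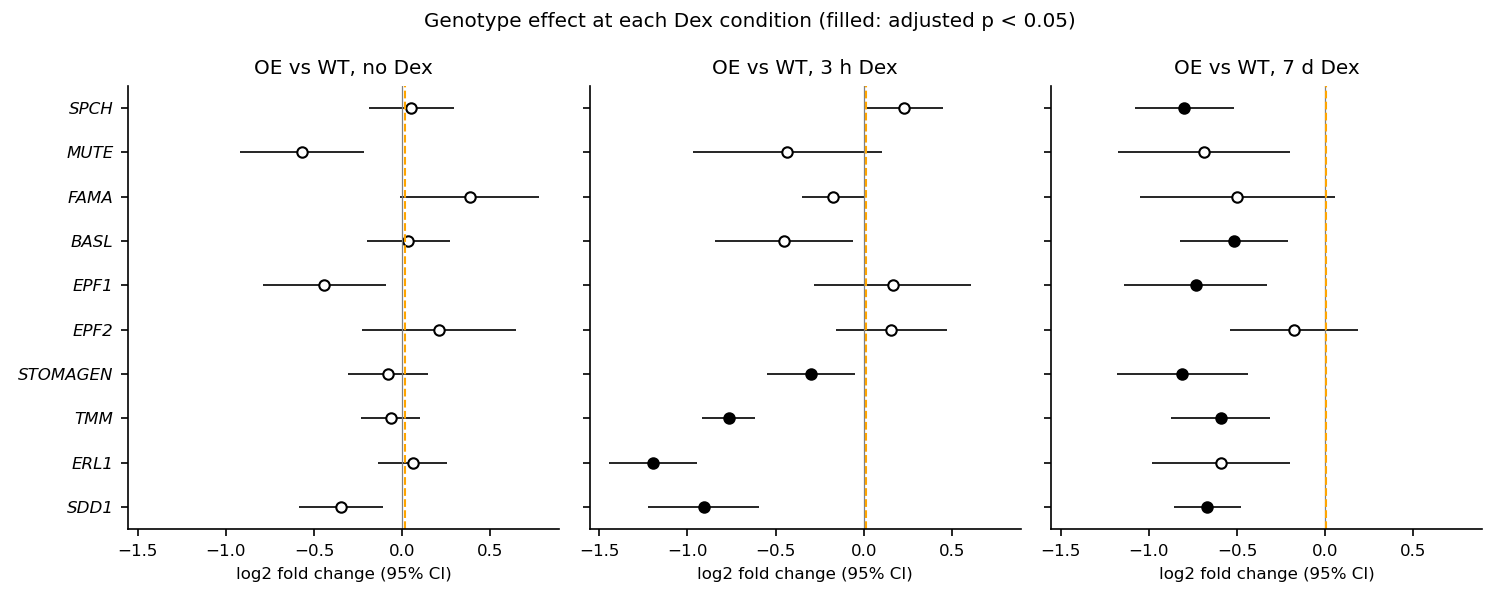
Log2 fold change of OE over WT (x axis) with its 95% interval for the 10 stomatal lineage genes without Dex, after 3 h and after 7 days, 8 libraries per panel, filled where the adjusted p was under 0.05, with the median of all tested genes as a dashed line. ERL1, TMM and SDD1 lie farthest left at 3 h (-1.19, -0.76 and -0.91), and at 7 days all 10 points are left of 0, from -0.81 for STOMAGEN to -0.18 for EPF2.

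The other genes of the pathway, 26 in the list and 25 with enough counts to test, gave 10 lower and 5 higher at 3 h by edgeR, 4 and 1 of them past 2-fold. The other 10 did not pass, so the share that passed was near the 53.2% of all genes tested. Of all genes, 25.8% passed as lower and 9.40% were past 2-fold. The whole ERECTA family fell. ERECTA went from 70.3 to 73.3 CPM in WT to 24.7 to 30.6 CPM in OE (-1.37 ± 0.07, edgeR, adjusted p = 7.5e-08), and ERL2 from 15.7 to 16.7 CPM to 5.17 to 7.01 CPM (-1.34 ± 0.09, edgeR, adjusted p = 8.44e-07). With ERL1, the 3 receptor kinases were thus between -1.37 and -1.19, and no OE library reached the lowest WT library for any of them.

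The largest fall on that list was in CRSP, the secreted protease that processes EPF2, from 5.59 to 6.95 CPM in WT to 1.19 to 1.69 CPM in OE (-2.17 ± 0.14, edgeR, adjusted p = 5.75e-07). CHAL, also called EPFL6, a peptide of the same family as the EPFs, was at -1.05 ± 0.18 (edgeR, adjusted p = 0.000591) with lowest counts in any library of 61 in WT and 43 in OE. MYB88, a MYB factor that limits the last division, was higher, 13.5 to 15.7 CPM against 6.08 to 8.47 CPM in WT (1.02 ± 0.10, edgeR, adjusted p = 1.07e-05), while its paralogue FLP was at -0.60 ± 0.11 (edgeR, adjusted p = 0.000968). The files do not say how reads shared by close paralogues such as FLP and MYB88 were split, beyond RSEM's own estimate.

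Marker genes of other tissues moved with these members, where 53.2% of all genes tested passed and 25.8% passed as lower. At 3 h, 5 of 6 epidermis genes were lower in OE and their sum was 894 to 964 CPM against 1543 to 1643 CPM in WT. Of 10 genes of dividing cells and young leaf, 6 were lower, with sums of 148 to 156 CPM against 188 to 201 CPM. All 5 photosynthesis genes were lower and all 5 root genes higher, the latter summing to 35.2 to 40.4 CPM against 18.2 to 20.7 CPM. Of 12 mature guard cell genes, 1 was lower and 1 higher, with sums of 1714 to 1950 CPM against 1813 to 1994 CPM. No marker was at 0 throughout a group, and the part of these shifts in the values of ERL1, TMM and SDD1 was not tested.

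**Figure D3:**
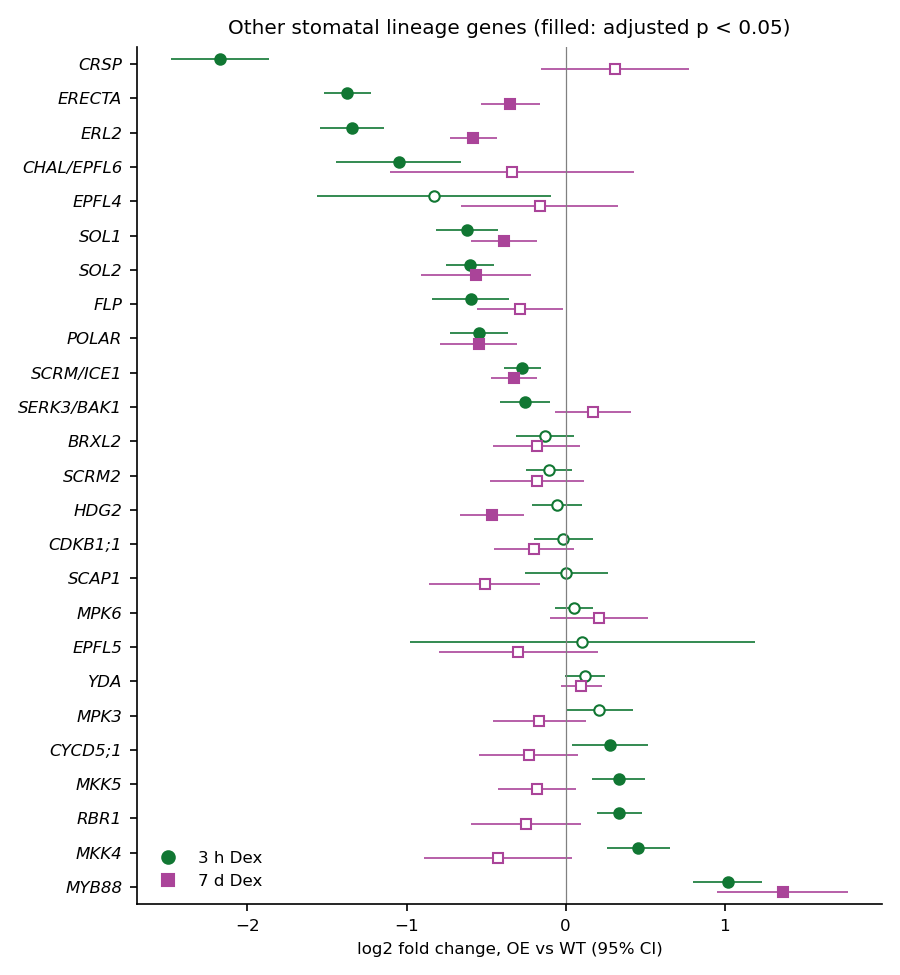
Log2 fold change of OE over WT (x axis) with its 95% interval for 25 other stomatal lineage genes after 3 h (green circles) and 7 days (purple squares) of Dex, filled where the adjusted p was under 0.05, in order of the 3 h value. CRSP (-2.17), ERECTA (-1.37) and ERL2 (-1.34) lie farthest left at 3 h, and MYB88 lies farthest right at both times (1.02 and 1.36).

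After 7 days on Dex, all 10 members had lower fitted levels in OE than in WT, and 6 passed the test: SPCH, BASL, EPF1, STOMAGEN, TMM and SDD1. None reached 2-fold. The members with the smallest adjusted p were SDD1 and SPCH, a protease that lowers stomatal density and the factor that starts the lineage.

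SPCH was at 6.40, 7.06, 7.72 and 8.12 CPM in WT and 4.53, 3.88, 4.74 and 3.72 CPM in OE. The 4 OE libraries were below every WT library, and below every library of the other groups. The fall was -0.80 ± 0.12 (edgeR, adjusted p = 0.00549), with -0.68 within libraries 1 and 2 and -0.91 within libraries 3 and 4.

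STOMAGEN was at 10.2, 8.70, 13.9 and 13.9 CPM in WT and 6.03, 6.76, 6.73 and 7.13 CPM in OE. WT libraries 3 and 4 were higher than 1 and 2, and all 4 were above OE. The difference was -0.81 ± 0.16 (edgeR, adjusted p = 0.0154), -0.56 within libraries 1 and 2 and -1.01 within libraries 3 and 4.

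SDD1, at 9.08, 10.4, 9.83 and 9.63 CPM in WT and 6.39, 5.82, 6.36 and 5.93 CPM in OE, gave -0.67 ± 0.08 (edgeR, adjusted p = 0.00223). TMM, at 16.7, 16.0, 14.2 and 15.3 CPM in WT and 8.34, 9.63, 11.3 and 11.9 CPM in OE, gave -0.59 ± 0.12 (edgeR, adjusted p = 0.0166). The groups were apart for both genes. SDD1 was at -0.67 within either pair of libraries, whereas TMM was at -0.87 within libraries 1 and 2 and -0.34 within 3 and 4, and TMM did not pass without OE library 2 (edgeR, adjusted p = 0.0505).

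EPF1, the peptide that acts late in the lineage, was at 1.61, 1.58, 1.62 and 1.62 CPM in WT and 0.917, 1.27, 0.832 and 0.846 CPM in OE (-0.74 ± 0.18, edgeR, adjusted p = 0.0294). BASL was at 3.57, 3.75, 3.49 and 3.76 CPM in WT and 2.25, 2.51, 3.13 and 2.30 CPM in OE (-0.52 ± 0.13, edgeR, adjusted p = 0.0381). Both were apart between the groups. Of 8 fits that each left out 1 library, EPF1 passed only in the one without OE library 2 and BASL only in the one without OE library 3, and the adjusted p reached 0.0829 and 0.107. Within libraries 1 and 2 EPF1 was at -0.54 and BASL at -0.62, and within libraries 3 and 4 at -0.95 and -0.42, where only the -0.95 of EPF1 passed (edgeR, adjusted p = 0.0196).

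FAMA followed the parting of the libraries, at 22.4, 21.5, 14.0 and 12.8 CPM in WT and 15.9, 14.1, 11.5 and 8.54 CPM in OE. The groups overlapped although each OE library was below the WT library of the same number. Its -0.50 ± 0.24 did not pass (edgeR, adjusted p = 0.194). The libraries of the same number deviated together at 7 days in both genotypes, and with the replicate number as a block FAMA was at -0.49 ± 0.08 (edgeR, adjusted p = 0.00793). It was at -0.55 within libraries 1 and 2 (edgeR, adjusted p = 0.0219) and at -0.42 within libraries 3 and 4 (edgeR, adjusted p = 0.0813).

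MUTE (-0.69 ± 0.21, edgeR, adjusted p = 0.0661) and ERL1 (-0.59 ± 0.17, edgeR, adjusted p = 0.0531) did not pass, but did with the block, at adjusted p of 0.0386 and 0.0365. Within libraries 1 and 2 they were at -0.75 and -0.65, and within libraries 3 and 4 at -0.63 and -0.54, where only ERL1 in libraries 3 and 4 passed (edgeR, adjusted p = 0.0185). ERL1 in OE ran from 3.20 to 5.46 CPM, below the 5.94 to 7.41 CPM of WT, and MUTE from 0.71 to 1.27 CPM, below 1.46 to 1.73 CPM. EPF2 passed in none of these fits and was at -0.18 with a 95% interval from -0.54 to 0.18 (edgeR, adjusted p = 0.46), and at -0.08 and -0.26 within the library pairs.

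The 6 of 10 members that passed compare with 14.1% of 20665 genes passed and 7.37% passed as lower. With the block 9 of 10 passed, but these shares come from the fit without it and do not apply to that count. Past 2-fold the members gave 0 of 10 by edgeR and by DESeq2, against 3.88% of genes, with 8 members at an unadjusted p under 0.05. The groups did not overlap for 8 of 10 members and 23.3% of genes. The median was -0.63 for the members and 0.00 for all genes tested.

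Of 25 other lineage genes tested at 7 days, 7 were lower and 1 higher, where 14.1% of all genes tested passed and 7.37% passed as lower. MYB88 was the only one past 2-fold, at 23.6 to 28.3 CPM against 7.69 to 13.1 CPM in WT (1.36 ± 0.18, edgeR, adjusted p = 0.0028). ERECTA and ERL2 were still lower, at -0.35 ± 0.08 and -0.58 ± 0.06 (edgeR, adjusted p = 0.0266 and 0.00118), and POLAR, which marks the same cell side as BASL, was at -0.55 ± 0.11 (edgeR, adjusted p = 0.0136). CRSP, which fell most at 3 h, was at 9.32 to 15.3 CPM, and WT was at 7.20 to 11.6 CPM.

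Mature guard cell genes were lower at this time, 5 of 12 by the test, and summed to 978 to 1199 CPM in OE against 1553 to 1742 CPM in WT. The epidermis genes were less apart, with 2 of 6 lower and sums of 1466 to 1526 CPM against 1672 to 1814 CPM. Of the 10 genes of dividing cells and young leaf, 5 were lower and 2 higher (sums of 132 to 143 CPM against 170 to 193 CPM), and root sums overlapped. The part of these shifts in the 7-day values was not tested.

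In WT, which carries no inducible EXPA1, 4 members differed between 3 h of Dex and no Dex. EPF2 went from 1.71, 1.60, 1.91 and 1.24 CPM without Dex to 4.19, 4.01, 2.81 and 4.22 CPM after 3 h, and no libraries overlapped. It rose by 1.25 ± 0.18 on the log2 scale (edgeR, adjusted p = 0.000861). TMM rose by 0.35 ± 0.07 (edgeR, adjusted p = 0.00427) and SPCH by 0.43 ± 0.14 (edgeR, adjusted p = 0.0373), although SPCH did not pass without WT library 3 or 4 of no Dex or without library 1, 2 or 4 of 3 h, where the adjusted p ran from 0.0653 to 0.108. STOMAGEN fell by 0.51 (edgeR, adjusted p = 0.00792). EPF1 passed, as lower, without WT library 1 of no Dex (-0.62, edgeR, adjusted p = 0.0451) or library 3 of 3 h (-0.66, edgeR, adjusted p = 0.0366). The 4 of 10 compare with 36.4% of 20571 genes, the 1 past 2-fold (EPF2) with 8.94%, and 4 members without overlap with 37.7% of genes. Of the marker genes, 4 of 10 of dividing cells and young leaf were higher, as were 3 of 12 of mature guard cells, where 2 were lower.

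In OE, EPF2 went from 1.42, 1.68, 2.23 and 2.08 CPM without Dex to 4.93, 4.03, 4.10 and 3.92 CPM after 3 h (1.17 ± 0.15, edgeR, adjusted p = 4.19e-05), and SPCH from 7.35, 7.66, 7.41 and 7.42 CPM to 11.7, 10.6, 11.8 and 11.3 CPM (0.58 ± 0.06, edgeR, adjusted p = 1.01e-05). Neither gene's libraries overlapped. ERL1 (-1.44 ± 0.10), STOMAGEN (-0.75 ± 0.10), SDD1 (-0.73 ± 0.14), FAMA (-0.61 ± 0.11) and TMM (-0.37 ± 0.07) were lower, all with adjusted p by edgeR of 0.000742 or less. BASL passed without OE library 4 of no Dex (-0.31, edgeR, adjusted p = 0.0471). The 7 of 10 compare with 67.1% of 20548 genes, the 2 past 2-fold (EPF2 and ERL1) with 18.1%, and 7 members without overlap with 62.3%. Marker genes moved too: 5 of 6 of epidermis, 7 of 10 of dividing cells and young leaf and 7 of 12 of mature guard cells were lower, and 5 of 5 root genes were higher, all past 2-fold. These counts stand beside the 67.1% of all genes that passed in either direction. The share of all genes that passed as lower is not given here for this comparison. The root genes started from the low OE sums without Dex (7.59 to 13.1 CPM). The part of these shifts in the values of the members at 3 h was not tested.

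**Figure D4:**
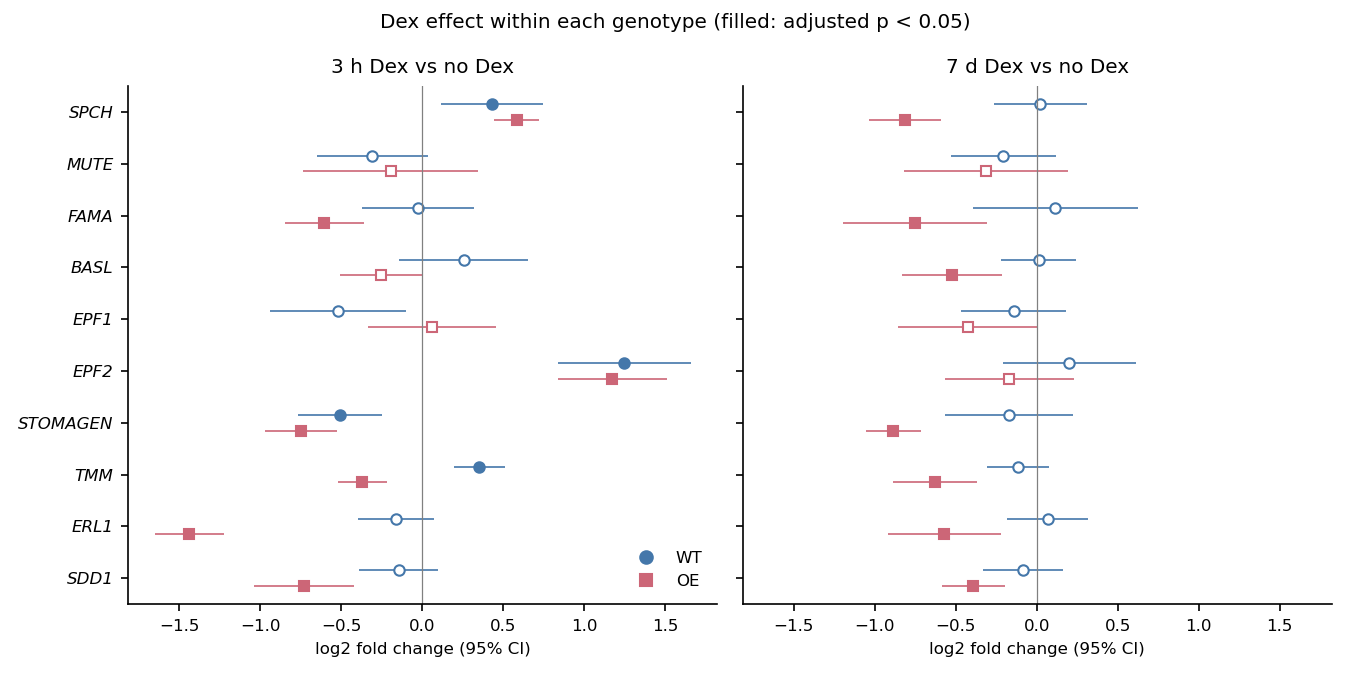
Log2 fold change against no Dex (x axis) with its 95% interval for the 10 stomatal lineage genes in WT (blue circles) and OE (red squares) after 3 h (left) and 7 days (right), 8 libraries per contrast, filled where the adjusted p was under 0.05. EPF2 lies at 1.25 and 1.17 after 3 h in WT and OE, ERL1 at -0.16 and -1.44, and at 7 days no WT point is filled while 7 OE points are, all left of 0.

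The contrast of the changes from no Dex to 3 h, OE less WT, shares its libraries with the comparisons above. It was negative for ERL1 (-1.28 ± 0.14, edgeR, adjusted p = 2.86e-06), TMM (-0.72 ± 0.10, edgeR, adjusted p = 3.68e-05), SDD1 (-0.59 ± 0.19, edgeR, adjusted p = 0.0222) and FAMA (-0.58 ± 0.20, edgeR, adjusted p = 0.0333). TMM thus rose in WT and fell in OE. SDD1 did not pass without OE library 1 of no Dex (adjusted p = 0.0604), and FAMA passed in only 5 of 16 fits that each left out 1 library, with adjusted p up to 0.0826. Without WT library 3 of 3 h, BASL (-0.61, edgeR, adjusted p = 0.0232) and EPF1 (0.73, edgeR, adjusted p = 0.0374) passed as well. For EPF2 the contrast was -0.08, with a 95% interval from -0.59 to 0.43. These 4 of 10 compare with 38.5% of 21090 genes, and the 1 past 2-fold (ERL1) with 12.2%.

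After 7 days on Dex no difference from no Dex was detected for any member in WT: 0 of 10 passed by edgeR, 0 by DESeq2, and 0 had an unadjusted p under 0.05. Among all 20768 genes 0.00963% passed (2 genes), and 0.00482% passed 2-fold. No member and 5.15% of genes were without overlap. The members lay between -0.21 for MUTE and 0.20 for EPF2.

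In OE, 7 of 10 members were lower after 7 days than without Dex: STOMAGEN (-0.89 ± 0.07), SPCH (-0.81 ± 0.10), FAMA (-0.75 ± 0.20), TMM (-0.63 ± 0.11), ERL1 (-0.57 ± 0.15), BASL (-0.52 ± 0.14) and SDD1 (-0.39 ± 0.08). The adjusted p by edgeR ran from 0.000118 for STOMAGEN to 0.023 for ERL1, and the libraries of all 7 were apart. The background was 29.5% of 20104 genes passed (14.4% as lower), 6.24% past 2-fold and 33.4% without overlap, with 0 members past 2-fold by edgeR and by DESeq2 and 7 at an unadjusted p under 0.05. FAMA, BASL and ERL1 each failed the test without some single libraries (FAMA without OE library 3 or 4 of no Dex, BASL in 4 of 8 such fits and ERL1 in 5 of 8), with adjusted p up to 0.0568, 0.0578 and 0.057.

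Marker genes moved in the same comparison. Of 12 mature guard cell genes 11 were lower, 2 of them past 2-fold, with a median of -0.75 and sums of 978 to 1199 CPM after 7 days against 1798 to 1964 CPM without Dex. Of the genes of dividing cells and young leaf 8 of 10 were lower and 1 higher, of epidermis 4 of 6 were lower, and 2 of 5 root genes were higher, both past 2-fold. Root sums in OE after 7 days (9.79 to 31.1 CPM) overlapped the low OE sums without Dex (7.59 to 13.1 CPM). The part of these shifts in the falls of the 7 members was not tested.

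The contrast of the 7-day effects, OE less WT, was negative for SPCH (-0.83 ± 0.16, edgeR, adjusted p = 0.00376), STOMAGEN (-0.71 ± 0.20, edgeR, adjusted p = 0.0308), TMM (-0.51 ± 0.14, edgeR, adjusted p = 0.0367), ERL1 (-0.63 ± 0.19, edgeR, adjusted p = 0.047) and BASL (-0.53 ± 0.16, edgeR, adjusted p = 0.0488). SPCH passed whichever library was left out, while the others each lost the call in 8 to 13 of 16 such fits. These 5 of 10 compare with 10.3% of 21180 genes, and 0 past 2-fold by edgeR and by DESeq2 (7 at an unadjusted p under 0.05) with 4.10%. MUTE, EPF1 and SDD1, already lower in every OE library without Dex, did not pass this contrast, whichever library was left out. Over those 16 fits SDD1 ran from -0.39 to -0.24, EPF1 from -0.43 to -0.21 and MUTE from -0.25 to 0.02.

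Set against each other, the 3 h and 7-day genotype effects differed for SPCH, EPF1 and ERL1. The difference, 3 h less 7 days, was 1.01 ± 0.16 for SPCH (edgeR, adjusted p = 0.000296), 0.89 ± 0.26 for EPF1 (edgeR, adjusted p = 0.0184) and -0.62 ± 0.21 for ERL1 (edgeR, adjusted p = 0.0368). SPCH and EPF1 were lower in OE at 7 days and not at 3 h, and the gap of ERL1 to WT was wider at 3 h, although ERL1 did not pass in 12 of 16 fits that left out 1 library. For TMM and SDD1 no difference between the times was detected (-0.18 and -0.25, with 95% intervals from -0.49 to 0.12 and from -0.63 to 0.12). STOMAGEN passed only without WT library 2 of 7 days (0.64, edgeR, adjusted p = 0.017) or OE library 3 of 3 h (0.60, edgeR, adjusted p = 0.0436). These 3 of 10 compare with 29.0% of 21141 genes, and the 1 past 2-fold (SPCH) with 8.52%.

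In the order of the 6 group means, OE at 7 days was lowest for SPCH, MUTE, FAMA, BASL, EPF1, STOMAGEN and TMM, and OE at 3 h for ERL1 and SDD1. Only for SPCH, ERL1 and SDD1 was the lowest group apart from its neighbour in all libraries. SPCH and EPF2 were highest in OE at 3 h, where their libraries overlapped with those of WT at 3 h. From highest to lowest group mean the ratio was 2.69 for both SPCH and ERL1, 2.62 for EPF2 and 1.69 for FAMA.

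The genes whose library-to-library variation was most like that of each member, after the group means were subtracted, were ranked by Pearson r of log2 CPM over 24 libraries, the 3 highest of 21413 genes for each, so every r is high by selection. For SPCH they were AT2G06950, AT1G57720 and AT3G20260 (r of 0.80 each), for MUTE LpxC4, HB-7 and AT3G26920 (0.68 to 0.71), and for FAMA AT5G25840, SEC6 and ATG3 (0.94 to 0.95). BASL had BZO1, AT2G24160 and AT1G21090 (0.73 to 0.77), EPF1 had AT1G67800, AT3G56010 and AT5G48655 (0.73 to 0.81), and EPF2 had PDF2, AT5G57270 and SGB1 (0.69 to 0.73), of which PDF2 is an epidermal homeodomain factor. STOMAGEN had KAI2, AT1G52342 and AT4G36470 (0.88 to 0.91), TMM had PLDBETA1, CEF and NIC3 (0.83 each), ERL1 had D27, AT1G58460 and AT1G07120 (0.81 to 0.85), and SDD1 had FAB1A, OXP1 and AT1G05150 (0.76 to 0.82). The part of the 7-day parting of libraries in the high r of FAMA and STOMAGEN was not tested.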

How the data were processed

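Shoot RNA was sequenced in 24 libraries. Per the labels, the authors used Trimmomatic for trimming, STAR and the TAIR10 build for alignment, and deposited estimated counts per gene from RSEM (expected counts, 3.82% of values not whole) and exon counts from featureCounts; versions are not given in the labels. The labels swap the genotype and treatment fields, so groups were taken from titles. Estimated counts were rounded here and tested with edgeR 4.0.16 in R 4.3.3 (filter by expression, TMM, quasi-likelihood F test, Benjamini-Hochberg over all tested genes), 8 libraries for each comparison of 2 groups and 16 for each contrast of 4. Genes passed at an adjusted p under 0.05, and past 2-fold also with an absolute log2 fold change of 1 or more. CPM used TMM over all libraries, and log values a prior count of 2. The members and lists were chosen with earlier results of these data known. All members were named, and other lineage genes past 2-fold in a genotype comparison; ERECTA without Dex, FLP, and ERECTA, ERL2, POLAR and CRSP at 7 days lie outside that rule, picked once values were known. Likeness took the 3 highest r. Alternatives were the deposited exon counts (83.3% to 97.8% of the estimated counts per library), DESeq2 1.42.0, its size factors, no filter, a replicate block, a term for 7-day library pairs and each library left out; 7-day fits within library pairs were chosen after seeing the data. Only for OE against WT at 7 days did libraries of the same number deviate together from their group means (correlations of 0.16 to 0.486). For WT at 7 days against no Dex these correlations were all negative (-0.362 to -0.0616). No source states a pairing. All replicates differed by more than sampling noise. Upstream windows came from TAIR10.1, where 97.9% of 1988 single-exon models that form an open frame start with ATG. The test was checked on simulated counts.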

Additional observations from a re-analysis of the deposited data

Results flagged for a closer look

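In 5 of 60 groups of 4 libraries examined (10 genes in 6 groups), 1 library lay far from the other 3, and chance alone flags about 1 in 20 such groups. MUTE was high in WT library 2 without Dex (2.18 CPM). EPF2 was low in WT library 3 at 3 h (2.81 CPM), and ERL1 was low in WT library 2 at 7 days (5.94 CPM). In OE at 3 h, library 2 was low for both TMM (11.1 CPM) and SDD1 (3.40 CPM). The chi-square per degree of freedom of that library against each replicate was 353 to 400, where the other pairs of the group gave 9.38 to 24.9. By rank it did not stand apart. Its Spearman values were 0.992 to 0.994, and the other pairs gave 0.993 to 0.997. Which genes set the high chi-square was not tested. The exon counts of that library were 83.3% of its estimated counts, the lowest share of any library.

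The effect of Dex after 3 h differed between OE and WT, on the log2 scale, for FAMA (-0.58), TMM (-0.72), ERL1 (-1.28) and SDD1 (-0.59). After 7 days it differed for SPCH (-0.83), BASL (-0.53), STOMAGEN (-0.71), TMM (-0.51) and ERL1 (-0.63). The genotype effect itself differed between 3 h and 7 days for SPCH (1.01), EPF1 (0.89) and ERL1 (-0.62). Each value comes from edgeR's quasi-likelihood test on 16 libraries, with standard errors and adjusted p given with the comparisons.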

How the results depend on the processing

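The calls of ERL1, TMM and SDD1 at 3 h, of SPCH, STOMAGEN and SDD1 in OE against WT at 7 days, and of EPF2 at 3 h in either genotype kept direction and side of the threshold under every alternative run. Without Dex, the members that passed numbered 0, but 1 on exon counts, 2 with DESeq2, 1 with other size factors, and 0 to 1 when a library was left out. Past 2-fold in OE against WT at 7 days, 1 member (STOMAGEN) was called within libraries 3 and 4. In the 7-day contrast of Dex effects, 5 members passed, but 3 on exon counts, with other size factors or with no filter, 2 with the replicate block and 1 to 5 with a library left out. For OE at 7 days against no Dex, the 7 that passed became 4 with the replicate block, and 4 to 7 with a library left out. For 3 h less 7 days, 0 to 1 members were past 2-fold when a library was left out. Libraries of the same number deviated together only for OE against WT at 7 days, where 9 rather than 6 members passed with the block. Both groups there also parted into libraries 1 and 2 against 3 and 4. Only libraries of the same number were compared, so a pairing by number was not told apart from that parting. The count of members that passed with the library pair term is not given here. The share of all genes that passed with the block is not given here. In the other comparisons libraries of the same number did not deviate together. For WT at 7 days against no Dex they deviated in opposite directions (correlations of -0.362 to -0.0616). Among all genes, calls past 2-fold went from 801 to 1221 with a library pair term and to 1452 within libraries 3 and 4 for OE against WT at 7 days, from 650 to as few as 354 (without OE library 4) for OE against WT without Dex, and from 1 to 28 with DESeq2 and to 0 with the block for WT at 7 days. Small uncalled log2 values changed sign. Leaving out a library gave, for OE against WT without Dex, SPCH -0.0194 to 0.116 and BASL -0.0112 to 0.0863; for WT at 3 h against no Dex, FAMA -0.149 to 0.066; for WT at 7 days against no Dex, SPCH -0.0471 to 0.0992, FAMA -0.0187 to 0.239, BASL -0.0306 to 0.0649 and SDD1 -0.147 to 0.00397; for OE at 3 h against no Dex, MUTE -0.389 to 0.00675 and EPF1 -0.0791 to 0.131; for the 3 h contrast, MUTE -0.0575 to 0.339 and EPF2 -0.176 to 0.0327; for the 7-day contrast, MUTE -0.245 to 0.0223; and for 3 h less 7 days, BASL -0.0566 to 0.185. Exon counts gave -0.00065 for BASL in WT at 7 days and 0.0059 for EPF2 in the 3 h contrast. The cause of these changes was not tested. MUTE, EPF1 and EPF2 rest on as few as 24, 31 and 49 counts in a library, which limits their precision.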
